A study of Homo sapiens with 18 samples.

Results

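The 10 genes described here act in the storage of neutral lipid in lipid droplets and in its breakdown. They are G0S2, PNPLA2, ABHD5, LIPE, MGLL, PLIN2, PLIN3, HILPDA, DGAT1 and DGAT2, taken by symbol from a table of 62710 genes. All 10 were in the table, and all 10 were among the 17030 genes that passed the filter on low counts. G0S2 was selected on its measured levels, whose collagen response differed between genotypes, so its values are given as a description with no test. The other 9 were taken for their place in the same pathway and were tested with all other genes. Earlier results of these data were known when they were chosen, so their p-values and counts are not free of selection.

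Polyadenylated RNA was sequenced from spheroids, small balls of cells, grown from MDA-MB-231, a mesenchymal line that was derived from a triple-negative breast tumour. The 18 libraries form 6 groups of 3. The MMP14-KO spheroids were taken from hanging droplets after 5 days of formation, after 24 h in collagen and after 48 h in collagen, and the Wildtype spheroids were taken in the same 3 conditions. MMP14 encodes a membrane-anchored matrix metalloproteinase that cleaves collagen at the cell surface. A sample contained 100000 cells, at 2000 per spheroid. The labels do not say whether the MMP14-KO line is a clone or a pool. Collagen gels were digested with collagenase before RNA was extracted and droplet spheroids were not, so collagen, time after embedding and digestion cannot be told apart in a comparison of collagen with droplets. The labels do not say that libraries of a group came from separate cultures, so the p-values measure the spread between these libraries, which may be technical.

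Cells store fatty acids as triacylglycerol in droplets bounded by a phospholipid monolayer. DGAT1 and DGAT2 make the triacylglycerol, and perilipins such as PLIN2 and PLIN3 coat the droplet. Breakdown runs in steps: the lipase ATGL, encoded by PNPLA2, removes the first fatty acid with the help of its co-activator ABHD5, hormone-sensitive lipase (LIPE) the next, and monoacylglycerol lipase (MGLL) the last. G0S2 and HILPDA are small proteins that bind and inhibit ATGL.

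Total expected counts per library were 19819401 to 33352163. MMP14 had 137.9 to 165.6 CPM (counts relative to the library total, scaled by the TMM method) over the 9 MMP14-KO libraries, against 1284 to 2250 CPM over the 9 Wildtype libraries, so the transcript was lower but present in the MMP14-KO libraries. This level does not measure the protein. Correlations of log2 CPM were 0.994 to 0.997 within groups and 0.967 to 0.995 between groups. VIM, the mesenchymal intermediate filament, had 1930 to 3834 CPM, while the hormone receptor genes ESR1 and PGR reached at most 0.308 and 0.209 CPM. ERBB2, the HER2 receptor gene listed with them, had 65.2 to 78.7 CPM. Of the 7 luminal epithelium markers, KRT8 had 441 to 546, KRT18 293 to 360 and KRT19 262 to 496 CPM. EPCAM had 3.80 to 10.4 and GATA3 6.74 to 10.6 CPM, and CDH1 and FOXA1 reached at most 0.781 and 0.595 CPM. The 10 adipocyte markers summed to 0.585 to 3.01 CPM, with LEP and ADRB3 at 0 in every library and 3 of the 10 tested. The sums were 2.66 to 3.01 CPM in MMP14-KO and 1.21 to 1.96 CPM in Wildtype droplets. They were 0.991 to 2.27 against 0.938 to 1.38 CPM at 24 h and 1.44 to 1.64 against 0.585 to 1.37 CPM at 48 h. In MMP14-KO 1, 2 and 1 of the 3 tested were higher and 0 lower (droplet, 24 h, 48 h), when 17.4%, 29.4% and 29.5% of all genes were called. The 8 fibroblast markers (6 tested) summed to 33.9 to 59.6 CPM, with 56.6 to 59.6 and 44.5 to 54.1 CPM in MMP14-KO spheroids at 24 h and 48 h in collagen, against 43.8 to 52.8 and 37.6 to 38.6 CPM in Wildtype spheroids, and 33.9 to 40.3 against 47.3 to 59.5 CPM in droplets. These markers did not move together. In MMP14-KO, 2 were called higher and 2 lower at 24 h (29.4% of all genes called), 2 and 1 at 48 h (29.5%). In droplets 0 were higher and 3 lower (17.4%). In collagen COL1A1 averaged 33.9 and 28.6 CPM in MMP14-KO against 23.6 and 20.2 in Wildtype spheroids (24 h, 48 h). COL1A2 averaged 0.381 and 0.315 against 6.12 and 3.07 CPM. The 8 macrophage and leukocyte markers (4 tested) summed to 100.5 to 151 CPM, with CD3E and MS4A1 at 0 in every library. Of these, CD68 had 86.3 to 131 CPM and was not called in any contrast. CD14 had 26.0 ± 3.02, 13.6 ± 1.35 and 12.4 ± 2.10 CPM in MMP14-KO and 21.8 ± 0.732, 10.9 ± 3.38 and 8.57 ± 1.13 CPM in Wildtype spheroids (droplet, 24 h, 48 h; SD, n = 3), and fell in collagen in both genotypes (adjusted p = 0.000104 or less, edgeR). CSF1R averaged 3.55, 3.73 and 3.16 CPM in MMP14-KO and 3.78, 2.20 and 2.31 CPM in Wildtype spheroids (droplet, 24 h, 48 h). Of the 4 tested, 1 was higher in MMP14-KO and 0 lower at 24 h and at 48 h (29.4% and 29.5% of all genes called). In droplets 0 were called (17.4%). In collagen against droplets, 1 was lower in MMP14-KO and 2 in Wildtype spheroids at both times (49.4% to 56.5% of all genes called). The part of these markers in the results was not tested. In bulk RNA of this kind, fewer cells of a type and less RNA per cell cannot be told apart.

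G0S2 lies on chromosome 1 at 209675420 to 209676388 on the plus strand (GRCh38, GENCODE 29). PLIN2 lies on the minus strand of chromosome 9 at 19108375 to 19149290. The 250 bases before the RefSeq transcription start of each are printed because their levels moved in opposite directions in collagen. They are from RefSeq on GRCh38.p14, at chr1:209675162-209675411 on the plus strand for G0S2 and chr9:19127493-19127742 on the minus strand for PLIN2. Both read 5′ to 3′ toward the start, and capitals mark matches to the motifs searched.
G0S2: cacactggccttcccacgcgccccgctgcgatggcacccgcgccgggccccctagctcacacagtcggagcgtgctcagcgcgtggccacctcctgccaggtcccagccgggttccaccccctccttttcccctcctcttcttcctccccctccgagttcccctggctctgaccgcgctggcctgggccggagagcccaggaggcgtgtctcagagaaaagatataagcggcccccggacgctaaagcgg
PLIN2: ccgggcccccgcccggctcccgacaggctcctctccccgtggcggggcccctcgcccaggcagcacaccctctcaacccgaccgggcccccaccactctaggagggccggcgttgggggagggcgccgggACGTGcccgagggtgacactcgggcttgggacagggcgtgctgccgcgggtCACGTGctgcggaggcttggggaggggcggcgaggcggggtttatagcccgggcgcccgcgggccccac
The G0S2 window is 69.2% G and C and the PLIN2 window 78%. The motifs were the AP-1 site TGANTCA, the TEAD site GGAATG, the hypoxia response core ACGTG, the PPAR half-site AGGTCA and the cAMP response element TGACGTCA, on both strands. The G0S2 window held no match to these letters. The PLIN2 window held 3 matches to ACGTG, at 120, 69 and 68 bases before the start, and those at 69 and 68 overlap as a palindrome. Among 35116 RefSeq promoter windows of 250 bases, 18.5% held ACGTG, 12.1% AGGTCA, 11.9% GGAATG, 6.57% TGANTCA and 1.65% TGACGTCA. The annotated PLIN2 gene extends beyond this start, and a match in these letters is a description of the sequence and not of binding.

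Measured per kilobase of exon, so that genes can be set beside each other, G0S2 was the most abundant of the 10 transcripts, with a median of 179.8 CPM per kb over the 18 libraries. PLIN3 followed at 70.4, PNPLA2 at 32.2, PLIN2 at 22.2 and DGAT1 at 13.9 CPM per kb. ABHD5 had 7.54, MGLL 4.78, HILPDA 4.50, DGAT2 2.42 and LIPE 0.537 CPM per kb. Library ranges did not overlap between PLIN3 and PNPLA2, between DGAT1 and ABHD5, between HILPDA and DGAT2, or between DGAT2 and LIPE. The other neighbours in this order overlapped, and G0S2 had 58.8 ± 7.26 CPM per kb in Wildtype droplets, where PLIN3 had 72.1 ± 0.185 (SD, n = 3). Exon lengths were those of all annotated exons joined, which need not be the transcript used in these cells.

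Of the inhibitors of ATGL, G0S2 was higher in MMP14-KO than in Wildtype spheroids in droplets and lower in both collagen conditions. In MMP14-KO libraries G0S2 had 93.2, 95.9 and 85.2 CPM in droplets, 131, 149 and 149 CPM after 24 h in collagen and 191, 164 and 162 CPM after 48 h. In Wildtype libraries it had 44.6, 51.0 and 57.2 CPM in droplets, 184, 171 and 183 CPM after 24 h and 196, 220.2 and 240.1 CPM after 48 h. The genotypes did not overlap in any condition, and within each genotype the libraries of the 3 conditions stood in the order droplet, 24 h, 48 h without overlap. Of all genes, 34.9%, 45% and 40.3% did not overlap between genotypes (droplet, 24 h, 48 h). Collagen and droplet libraries did not overlap for 54.9% to 62% of all genes. Libraries of 24 h and 48 h did not for 21.4% in MMP14-KO and 31.5% in Wildtype spheroids.

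**Figure D1:**
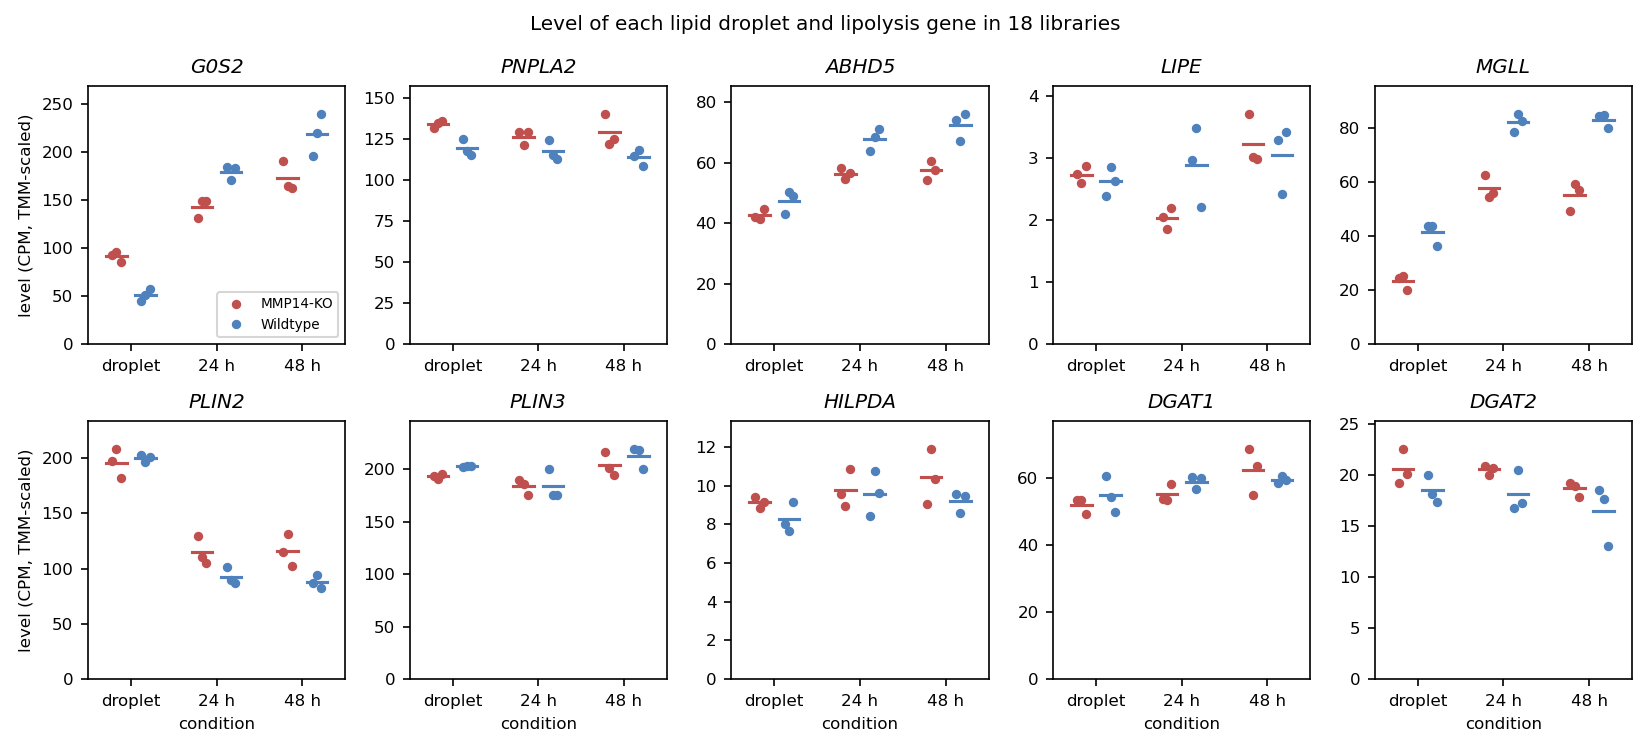
Level of each of the 10 genes in 18 libraries, as TMM-scaled CPM on the vertical axis against condition (droplet, 24 h and 48 h in collagen). Points are libraries of MMP14-KO (red, left) and Wildtype (blue, right) spheroids and bars are means of 3; G0S2 is higher in MMP14-KO in droplets (mean 91.4 CPM, against 50.9 CPM) and lower in collagen, MGLL is lower in MMP14-KO in all 3 conditions, and PLIN2 is lower in collagen than in droplets in both genotypes.

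The means were 91.4 ± 5.57, 143 ± 10.3 and 172.6 ± 16.0 CPM in MMP14-KO spheroids, and 50.9 ± 6.29, 179.5 ± 7.09 and 218.8 ± 22.0 CPM in Wildtype spheroids (droplet, 24 h, 48 h; SD, n = 3 each). On the log2 scale the MMP14-KO level minus the Wildtype level was 0.84 in droplets, -0.33 at 24 h and -0.34 at 48 h. The 24 h collagen response was 0.65 (1.56-fold) in MMP14-KO and 1.82 (3.52-fold) in Wildtype spheroids, and the 48 h response 0.92 (1.89-fold) and 2.10 (4.29-fold). The differences of these responses, MMP14-KO minus Wildtype, were -1.17 at 24 h and -1.18 at 48 h, each with an SE of 0.126. They share the droplet libraries and are not independent of each other. Of the 17030 genes, 199 (1.17%) had a difference as far below 0 at 24 h and 172 (1.01%) at 48 h. For the genotype differences, 3.84%, 11.9% and 10.4% were as far from 0 in the same direction (droplet, 24 h, 48 h). For the 24 h and 48 h responses the shares were 14.1% and 7.74% in MMP14-KO and 1.53% and 0.904% in Wildtype spheroids. The step between 24 h and 48 h was 0.27 in MMP14-KO and 0.29 in Wildtype spheroids (9.91% and 11.9% of genes as far above 0). The G0S2 log2 values moved by more than 1 SE under 1 alternative, which left out Wildtype droplet replicate 3: the droplet difference was then 0.95 and the Wildtype responses 1.91 and 2.19. The G0S2 gene is overlapped on the other strand by an antisense gene with at most 7 counts in a library and no shared exon.

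HILPDA, the other inhibitor and a hypoxia-inducible gene, had 7.67 to 11.9 CPM over the 18 libraries, and its groups overlapped in every comparison. Its levels were 9.15 ± 0.290, 9.79 ± 0.969 and 10.4 ± 1.44 CPM in MMP14-KO and 8.30 ± 0.787, 9.60 ± 1.16 and 9.23 ± 0.545 CPM in Wildtype spheroids (droplet, 24 h, 48 h; SD, n = 3). It passed the test (the quasi-likelihood test of edgeR, at a Benjamini-Hochberg adjusted p under 0.05 over the 17030 genes) in none of the 11 contrasts. The difference of its 24 h responses was -0.11 (95% interval -0.45 to 0.22). Without Wildtype 24 h replicate 1, its Wildtype 24 h response passed (0.29, adjusted p = 0.0481). HILPDA lies on chromosome 7 at 128455849 to 128458418 on the plus strand.

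Comparing MMP14-KO with Wildtype spheroids asks which of the 9 tested members depend on genotype in each condition. MGLL was lower in all 3 conditions, ABHD5 in both collagen conditions, PLIN2 was higher in both collagen conditions and PNPLA2 was higher by a small margin in droplets and at 48 h. In droplets 1 of the 9 members was higher and 1 lower, and 17.4% of all tested genes were called (7.7% higher, 9.7% lower). At 24 h 1 was higher and 2 were lower, and 29.4% of all genes were called (13.7% higher, 15.7% lower). At 48 h the higher members were 2 and the lower members 2, and 29.5% of all genes were called (14.4% higher, 15.1% lower). The libraries of the genotypes did not overlap for 3 members in droplets, 4 at 24 h and 4 at 48 h, and for 34.9%, 45% and 40.3% of all genes. The median log2 fold change of the 9 was -0.03, 0.00 and 0.09 in droplets, at 24 h and at 48 h, and that of all tested genes 0.00 in each.

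The comparison of collagen with droplets within a genotype asks which members move when spheroids are embedded. In both genotypes MGLL and ABHD5 rose and PLIN2 fell at both times. In MMP14-KO spheroids 2 members rose and 1 fell at 24 h, when 51.1% of all genes were called (25.5% higher, 25.7% lower). At 48 h 3 rose and 1 fell there, when 49.4% were called (25.8% higher, 23.6% lower). In Wildtype spheroids 2 rose and 2 fell at 24 h, when 56.5% of all genes were called (27.8% higher, 28.7% lower), and 2 rose and 1 fell at 48 h, when 55.2% were called (27.7% higher, 27.5% lower). Collagen and droplet libraries did not overlap for 7 of the 9 at 24 h and 6 at 48 h in MMP14-KO (61.4% and 54.9% of all genes), and for 4 and 3 in Wildtype spheroids (62% and 61.8%). Both times were set against the same droplet libraries. Median responses of the 9 were -0.01 and 0.19 in MMP14-KO and 0.10 and 0.12 in Wildtype spheroids, and medians of all genes lay between 0.00 and 0.02. Between 24 h and 48 h, 1 member was higher at 48 h in MMP14-KO (LIPE; 3.81% of all genes called, 2.07% higher and 1.73% lower) and 1 in Wildtype spheroids (PLIN3; 13.2% of all genes called, 6.32% higher and 6.88% lower). Libraries of the times did not overlap for 3 members in MMP14-KO and 0 in Wildtype spheroids, when 21.4% and 31.5% of all genes did not.

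Among the lipases, MGLL varied most, 4.23-fold from its lowest to its highest library. In MMP14-KO libraries it had 24.4, 25.2 and 20.2 CPM in droplets, 62.7, 54.7 and 56.0 CPM after 24 h in collagen and 49.3, 59.5 and 57.2 CPM after 48 h. In Wildtype libraries it had 43.8, 43.9 and 36.4 CPM in droplets, 78.7, 85.4 and 82.7 CPM after 24 h and 84.5, 85.0 and 80.0 CPM after 48 h. Every collagen library was above every droplet library of its genotype, and every MMP14-KO library was below every Wildtype library of the same condition. The log2 fold change of MMP14-KO against Wildtype was -0.83 (SE 0.0899, adjusted p = 1.14e-06, edgeR) in droplets, -0.51 (adjusted p = 0.000125) at 24 h and -0.59 (adjusted p = 2.9e-05) at 48 h. The collagen responses were 1.31 at 24 h and 1.25 at 48 h in MMP14-KO, and 0.99 and 1.01 in Wildtype spheroids, with edgeR adjusted p-values of 3.12e-09 or less. The 24 h responses differed by 0.32 (95% interval 0.07 to 0.58, adjusted p = 0.11, edgeR) and the 48 h responses by 0.24 (-0.01 to 0.50, adjusted p = 0.236). The 24 h difference passed without Wildtype droplet replicate 3 (0.39, adjusted p = 0.035) and with no filter on low counts (adjusted p = 0.0269). MGLL lies on chromosome 3 at 127689062 to 128052190 on the minus strand and overlaps SEC61A1 on the other strand without a shared exon.

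ABHD5, the co-activator of ATGL, rose in collagen in both genotypes and was lower in MMP14-KO collagen spheroids. It had 42.2, 41.4 and 44.8 CPM in MMP14-KO droplets, 58.3, 54.5 and 56.4 CPM after 24 h in collagen and 54.4, 60.4 and 57.4 CPM after 48 h. In Wildtype libraries it had 43.0, 50.1 and 48.9 CPM in droplets, 63.9, 68.3 and 70.9 CPM after 24 h and 74.2, 67.2 and 76.1 CPM after 48 h. The genotypes overlapped in droplets and not in collagen. The log2 fold change of MMP14-KO against Wildtype was -0.15 (adjusted p = 0.142, edgeR) in droplets, -0.27 (SE 0.065, adjusted p = 0.00374) at 24 h and -0.34 (SE 0.0653, adjusted p = 0.000554) at 48 h. The collagen responses of 0.40 and 0.42 in MMP14-KO and 0.52 and 0.61 in Wildtype spheroids passed at 24 h and 48 h (adjusted p = 3.33e-05 or less, edgeR). The difference between genotypes in these responses did not pass at either time, at -0.12 (95% interval -0.31 to 0.07) and -0.19 (-0.38 to 0.00). ABHD5 lies on chromosome 3 at 43690108 to 43734371 on the plus strand. No call of ABHD5 was lost under any of the 24 alternatives. Exons of ABHD5 share 170 bases with those of ANO10 on the other strand, which had up to 2301 counts, and whether counting used strand is not given in the sources used here.

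PNPLA2, encoding ATGL itself, did not pass in any comparison of collagen with droplets and varied 1.29-fold from its lowest to its highest library. It had 132, 135 and 136 CPM in MMP14-KO droplets, 129, 121 and 129.6 CPM after 24 h in collagen and 141, 122 and 125 CPM after 48 h. In Wildtype libraries it had 125, 118 and 115 CPM in droplets, 125, 115 and 113 CPM after 24 h and 115, 119 and 109 CPM after 48 h. MMP14-KO libraries were above Wildtype libraries without overlap in droplets and at 48 h, and overlapped them at 24 h. The log2 fold changes were 0.17 (adjusted p = 0.0372, edgeR), 0.11 (adjusted p = 0.168) and 0.18 (adjusted p = 0.0195) in droplets, at 24 h and at 48 h. The 24 h difference passed with scaling by library size alone (0.16, adjusted p = 0.0355). The droplet call was lost without Wildtype droplet replicate 2 (adjusted p = 0.0931) or 3 (0.0925), MMP14-KO droplet replicate 2 (0.0685) or 3 (0.0929), or Wildtype 48 h replicate 1 (0.0506), and with no filter (0.058). The 48 h call was lost without Wildtype 48 h replicate 3 (0.108) or MMP14-KO 48 h replicate 1 (0.104), with no filter (0.0574) and with only the groups compared (0.0571). PNPLA2 lies on chromosome 11 at 818902 to 825573 on the plus strand.

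LIPE, encoding hormone-sensitive lipase, was the least abundant member, with 1.85 to 3.71 CPM and 45 to 95 counts per library. It had 2.73 ± 0.139, 2.03 ± 0.171 and 3.23 ± 0.416 CPM in MMP14-KO and 2.62 ± 0.236, 2.88 ± 0.639 and 3.04 ± 0.539 CPM in Wildtype spheroids (droplet, 24 h, 48 h; SD, n = 3). Its difference between MMP14-KO and Wildtype at 24 h was -0.50 on the log2 scale without overlap of the libraries and did not pass (adjusted p = 0.0511, edgeR); it passed without Wildtype 24 h replicate 3 (0.0181), Wildtype 48 h replicate 2 (0.0442) or MMP14-KO 48 h replicate 1 (0.0485). The step of 0.68 between 24 h and 48 h in MMP14-KO spheroids passed (adjusted p = 0.0481) and was lost in 20 of 24 alternatives, 15 of which left out 1 library, with adjusted p-values up to 0.204. It held without Wildtype 24 h replicate 2 or 3, without Wildtype 48 h replicate 2 and with DESeq2. LIPE lies on chromosome 19 at 42401507 to 42427426 on the minus strand.

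Of the droplet coat genes, PLIN2 fell in collagen in both genotypes and was higher in MMP14-KO collagen spheroids. In MMP14-KO libraries it had 197, 209 and 182 CPM in droplets, 129.6, 111 and 105 CPM after 24 h in collagen and 115, 131 and 103 CPM after 48 h. In Wildtype libraries it had 202, 197 and 201 CPM in droplets, 102, 89.6 and 86.8 CPM after 24 h and 87.0, 94.3 and 82.4 CPM after 48 h. The genotypes overlapped in droplets, and in collagen every MMP14-KO library was above every Wildtype library of the same time. The log2 fold change of collagen against droplets was -0.77 at 24 h and -0.75 at 48 h in MMP14-KO, and -1.11 and -1.19 in Wildtype spheroids (adjusted p = 1.22e-06 or less, edgeR). MMP14-KO against Wildtype was -0.03 (adjusted p = 0.867, edgeR) in droplets, 0.31 (SE 0.0885, adjusted p = 0.0123) at 24 h and 0.40 (SE 0.0891, adjusted p = 0.00235) at 48 h. The 24 h call was lost without Wildtype 24 h replicate 3 (0.27, adjusted p = 0.0644) or MMP14-KO 24 h replicate 1 (0.22, adjusted p = 0.0783).

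PLIN2 was the 1 member of the 9 whose collagen response was called different between genotypes, at 48 h. The test of this difference called 0 of the 9 members at 24 h, when 7.41% of all genes were called (3.32% higher, 4.09% lower), and 1 at 48 h, when 6.79% were called (4% higher, 2.78% lower). DESeq2 also called 0 and 1. Without adjustment for the number of genes, edgeR would have called 3 members at 24 h at the same threshold of 0.05, namely PLIN2, MGLL and LIPE. With adjustment none of them passed (adjusted p = 0.0959, 0.11 and 0.207, edgeR). The share of all genes at the unadjusted threshold is not given here, so this count cannot be set beside the 7.41%. The PLIN2 response was 0.43 higher in MMP14-KO than in Wildtype spheroids at 48 h (SE 0.124, 95% interval 0.17 to 0.70, adjusted p = 0.0426, edgeR), a smaller fall. At 24 h it was not called (0.34, 95% interval 0.08 to 0.60, adjusted p = 0.0959), and passed without Wildtype 24 h replicate 1 (0.41, adjusted p = 0.0367) and with no filter (adjusted p = 0.00369). The 48 h call was lost without any of the 3 Wildtype droplet libraries (adjusted p = 0.116, 0.0847 and 0.0606 for replicates 1 to 3), MMP14-KO droplet replicates 1 (0.0827) and 3 (0.125), MMP14-KO 24 h replicate 2 (0.0607), Wildtype 48 h replicates 1 (0.0649) and 3 (0.129), and MMP14-KO 48 h replicates 1 (0.0662) and 2 (0.107). Its value stayed between 0.33 and 0.50 over the 24 alternatives.

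**Figure D2:**
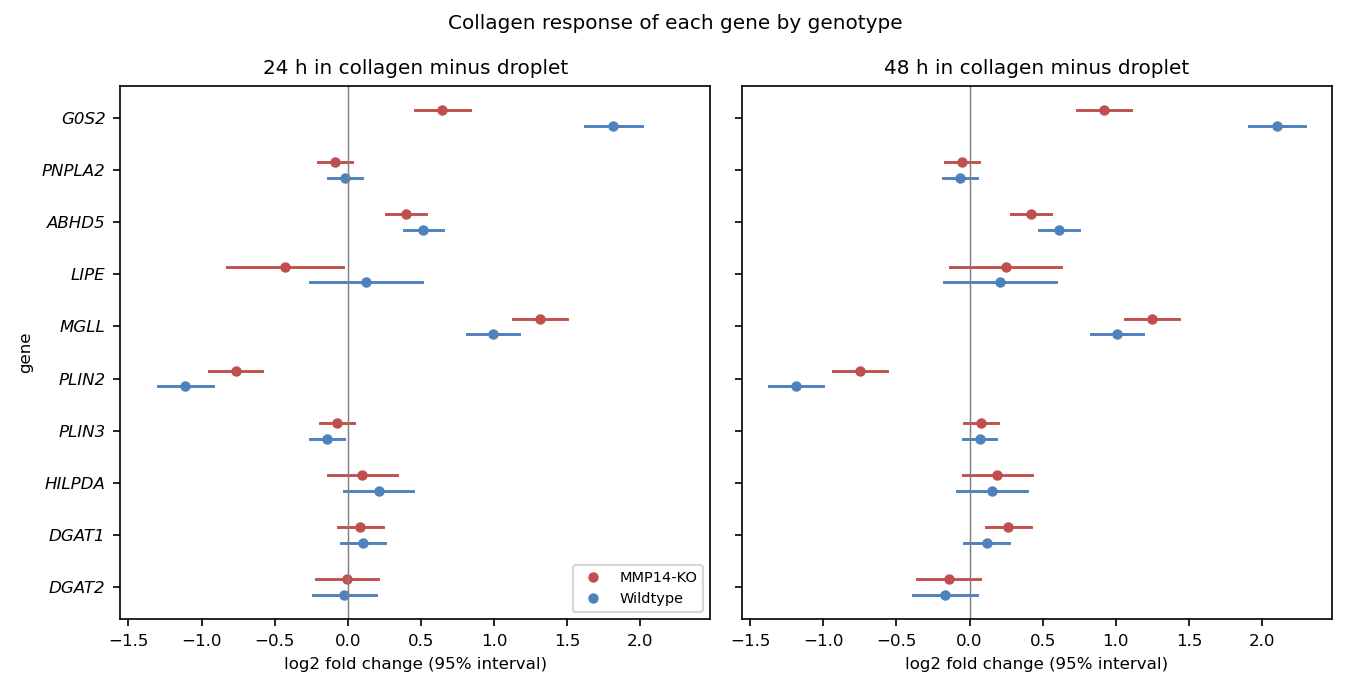
Collagen response of each gene, as log2 fold change of 24 h (left) and 48 h (right) in collagen against droplets, with 95% intervals from the fit across 18 libraries. G0S2 was chosen on these responses, so its intervals describe the spread between libraries and are not to be read as a test. MMP14-KO (red) is drawn above Wildtype (blue) for each gene; G0S2 has 0.65 and 0.92 in MMP14-KO and 1.82 and 2.10 in Wildtype spheroids and is shown without a test, MGLL and ABHD5 lie to the right of 0 and PLIN2 to the left in both genotypes.

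PLIN3, a coat protein found in many tissues, was nearly level. It had 193 ± 2.38, 184 ± 7.47 and 204 ± 11.1 CPM in MMP14-KO and 203 ± 0.519, 184 ± 14.3 and 213 ± 10.6 CPM in Wildtype spheroids (droplet, 24 h, 48 h; SD, n = 3). Its Wildtype level fell by 0.14 on the log2 scale at 24 h against droplets (adjusted p = 0.0358, edgeR) and was 0.21 higher at 48 h than at 24 h (adjusted p = 0.0147). The 24 h call was lost in 12 of 24 alternatives, with adjusted p-values up to 0.146; they include leaving out any droplet library of either genotype, Wildtype 24 h replicate 2 or 3, or MMP14-KO 24 h replicate 1 or 2. The 48 h call was lost in 5, without Wildtype 24 h replicates 2 (0.0911) or 3 (0.0842), without Wildtype 48 h replicates 1 (0.0724) or 2 (0.0704) and with only the groups compared (0.0563). PLIN3 lies on chromosome 19 at 4838341 to 4867768 on the minus strand.

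Of the synthases, DGAT1 passed in 1 contrast and DGAT2 in none. DGAT1 had 53.2, 53.3 and 49.3 CPM in MMP14-KO droplets, 53.7, 53.5 and 58.1 CPM after 24 h in collagen and 68.7, 54.9 and 63.4 CPM after 48 h. Its rise at 48 h against droplets was 0.27 (SE 0.0735, adjusted p = 0.00474, edgeR), and no alternative lost it. In Wildtype spheroids it had 54.9 ± 5.45, 58.9 ± 2.00 and 59.5 ± 1.04 CPM (SD, n = 3), a 48 h response of 0.12 that did not pass (adjusted p = 0.184) but did without Wildtype droplet replicate 1 (0.19, adjusted p = 0.0391). The difference between the genotypes' 48 h responses was 0.15 (95% interval -0.07 to 0.36) and did not pass. DGAT1 exons share 139 bases with HSF1 on the other strand, which had up to 3392 counts. DGAT2 had 13.1 to 22.6 CPM over the 18 libraries, with 20.6 ± 1.76, 20.6 ± 0.441 and 18.7 ± 0.706 CPM in MMP14-KO and 18.5 ± 1.36, 18.2 ± 2.01 and 16.4 ± 2.94 CPM in Wildtype spheroids. DGAT2 lies on chromosome 11 at 75759512 to 75801535 on the plus strand.

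Ratios of levels per kilobase within a library put the inhibitors and the co-activator on the scale of ATGL. G0S2 over PNPLA2 was 3.02 ± 0.214, 5.02 ± 0.479 and 5.91 ± 0.143 in MMP14-KO and 1.90 ± 0.310, 6.77 ± 0.353 and 8.52 ± 1.14 in Wildtype spheroids (droplet, 24 h, 48 h; SD, n = 3). G0S2 over ABHD5 was 18.7 ± 1.87, 22.2 ± 2.24 and 26.3 ± 3.76 in MMP14-KO and 9.37 ± 0.719, 23.2 ± 1.71 and 26.4 ± 2.94 in Wildtype spheroids. The first ratio stood apart between genotypes in all 3 conditions, and the second in droplets, while in collagen its libraries overlapped. ABHD5 over PNPLA2 averaged 0.162, 0.227 and 0.227 in MMP14-KO and 0.202, 0.294 and 0.324 in Wildtype spheroids, apart between genotypes in all 3 conditions. HILPDA over PNPLA2 averaged 0.126, 0.143 and 0.151 in MMP14-KO and 0.129, 0.152 and 0.150 in Wildtype spheroids, with overlap in all 3 conditions. PLIN2 over PLIN3 was 0.561 ± 0.0450, 0.346 ± 0.0275 and 0.315 ± 0.0388 in MMP14-KO and 0.545 ± 0.00880, 0.278 ± 0.00472 and 0.228 ± 0.0103 in Wildtype spheroids. MGLL over PNPLA2 was 0.0562 ± 0.00709, 0.148 ± 0.00870 and 0.140 ± 0.0231 in MMP14-KO and 0.112 ± 0.00908, 0.227 ± 0.0197 and 0.236 ± 0.00339 in Wildtype spheroids. These are ratios of transcripts, not of proteins, and were given no test.

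**Figure D3:**
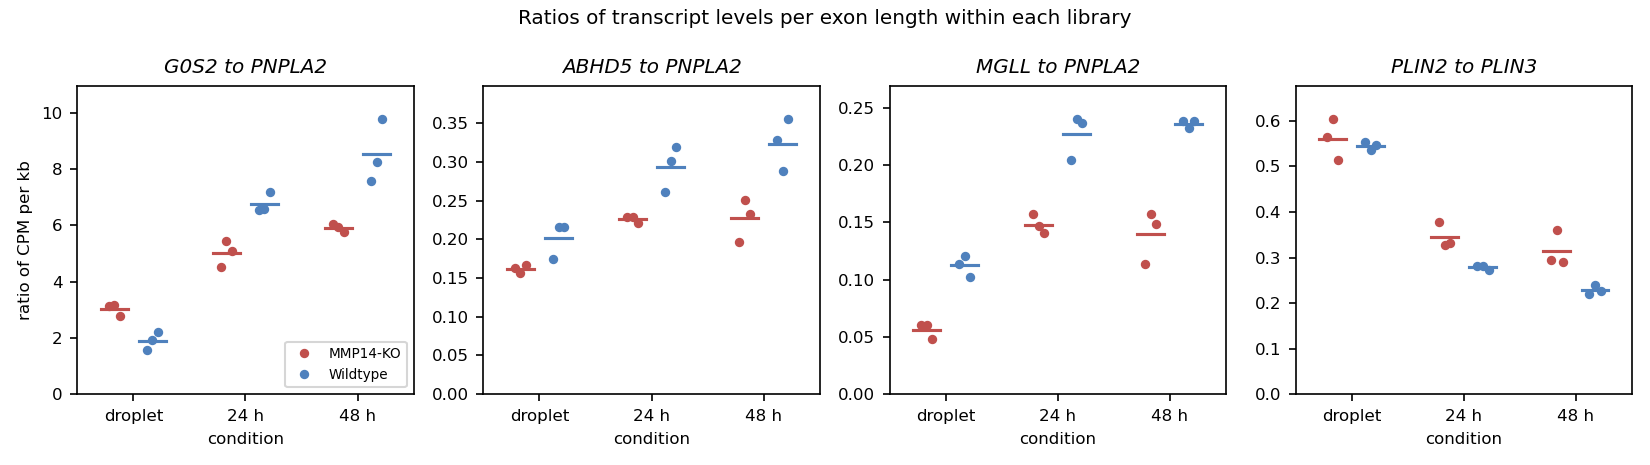
Ratios of transcript levels per kilobase of exon within each library, against condition. Points are MMP14-KO (red, left) and Wildtype (blue, right) libraries and bars are means of 3; G0S2 over PNPLA2 averages 3.02 in MMP14-KO and 1.90 in Wildtype droplets and 5.91 and 8.52 after 48 h in collagen, and PLIN2 over PLIN3 is lower in collagen than in droplets in both genotypes.

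The gene whose level followed G0S2 most closely over the 18 libraries was ADORA2B, encoding an adenosine receptor, with a Pearson r of 0.976 on log2(CPM + 1). Among the 5 highest of 11507 genes ranked were also the metallothionein gene MT1E (0.966), the ribosomal protein gene RPL3 (0.966) and CHML (0.965). MT1E had 12.4 ± 1.69, 25.4 ± 1.71 and 28.7 ± 1.38 CPM in MMP14-KO and 8.88 ± 1.31, 33.36 ± 2.11 and 44.2 ± 5.96 CPM in Wildtype spheroids (droplet, 24 h, 48 h; SD, n = 3). The lowest correlations were those of AHCYL2 (-0.968), WNT9A (-0.968) and BAG1 (-0.964). Among the members, ABHD5 had 0.803, MGLL 0.684, DGAT1 0.510, HILPDA 0.477, PLIN3 -0.00593, PNPLA2 -0.196, DGAT2 -0.332 and PLIN2 -0.905. Counted from the top of the 11507 genes, ABHD5 ranked 1262, MGLL 2406 and PLIN2 11247. These correlations run over 6 groups that stand apart from each other, so they mostly order group means, and genes measured in one library share its depth and scaling. LIPE was under the 5 CPM asked of ranked genes.

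Of the protein-coding genes within 250 kb of G0S2, 6 were tested. LAMB3, a laminin chain gene 23.0 kb away, rose in collagen by 0.43 and 0.49 in MMP14-KO and 0.62 and 0.58 in Wildtype spheroids (24 h, 48 h; adjusted p = 8.4e-08 or less, edgeR). Its responses did not differ between genotypes beyond the threshold, at -0.19 (adjusted p = 0.0676, edgeR) and -0.09 (adjusted p = 0.405). HSD11B1, 9.8 kb away and encoding an enzyme that makes active glucocorticoid, had 2.26 to 4.93 CPM and rose by 0.57 at 48 h in MMP14-KO spheroids (adjusted p = 0.0279, edgeR). None of the 6 had a called difference of responses between genotypes.

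Other genes of lipid metabolism were read from lists written from general knowledge, with earlier results of these data known. In the list of mitochondrial and peroxisomal fatty acid oxidation, 4 of 20 tested genes rose and 11 fell at 24 h against droplets in MMP14-KO spheroids, and 5 rose and 12 fell at 48 h, when 51.1% and 49.4% of all genes were called (25.7% and 23.6% lower). In Wildtype spheroids 3 rose and 11 fell, and 1 rose and 12 fell, when 56.5% and 55.2% of all genes were called (28.7% and 27.5% lower). The median log2 fold changes were -0.13 and -0.26 in MMP14-KO and -0.31 and -0.31 in Wildtype spheroids, when all genes had medians between 0.00 and 0.02. ACADS, the short-chain acyl-CoA dehydrogenase, fell at 24 h and 48 h, with log2 fold changes of -0.81 and -0.99 in MMP14-KO and -0.82 and -1.08 in Wildtype spheroids. ETFB, a subunit of the electron carrier of these dehydrogenases, fell likewise (-0.64 and -0.78 in MMP14-KO, -0.45 and -0.72 in Wildtype spheroids) and was higher in MMP14-KO in all 3 conditions (0.51, 0.32 and 0.46; adjusted p = 0.00508 or less, edgeR). Of the 20 genes, 2 were higher and 4 lower in MMP14-KO than in Wildtype droplets, 3 and 1 at 24 h, and 4 and 2 at 48 h. Of all genes, 17.4%, 29.4% and 29.5% were called in these comparisons.

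Of the 9 tested PPAR receptors and common targets, 1 rose and 3 fell at 24 h and 1 rose and 4 fell at 48 h in MMP14-KO spheroids, when 25.7% and 23.6% of all genes fell. In Wildtype spheroids 1 rose and 7 fell, and 1 rose and 6 fell, when 28.7% and 27.5% of all genes fell. Their median responses were -0.31 and -0.30 in MMP14-KO and -0.63 and -0.68 in Wildtype spheroids. PDK4, a kinase that restrains pyruvate oxidation, had 85.05 ± 6.85, 28.2 ± 1.34 and 17.7 ± 1.54 CPM in MMP14-KO and 87.9 ± 9.16, 16.8 ± 2.16 and 12.01 ± 1.31 CPM in Wildtype spheroids (droplet, 24 h, 48 h; SD, n = 3). Its fall was smaller in MMP14-KO by 0.80 at 24 h (adjusted p = 0.0024, edgeR) and 0.60 at 48 h (adjusted p = 0.017). The 48 h call of PDK4 was lost without Wildtype droplet replicate 1 (adjusted p = 0.0598), MMP14-KO droplet replicate 3 (0.0535) or Wildtype 48 h replicate 3 (0.0668). ANGPTL4, encoding an inhibitor of lipoprotein lipase, fell at 48 h in both genotypes, with a log2 fold change of -0.85 in MMP14-KO and -1.49 in Wildtype spheroids (adjusted p = 0.000709 or less, edgeR). In MMP14-KO against Wildtype spheroids 1 of the 9 was higher and 3 were lower in droplets, 4 higher and 1 lower at 24 h, and 5 higher and 1 lower at 48 h, with medians of -0.04, 0.24 and 0.34. Of all genes, 17.4%, 29.4% and 29.5% were called in these comparisons.

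Of 12 HIF target genes, 4 were higher and 0 lower in MMP14-KO than in Wildtype droplets, 3 higher and 1 lower at 24 h, and 8 higher and 1 lower at 48 h, with medians of 0.28, 0.28 and 0.54, when all genes had medians of 0.00. Of all genes, 7.7%, 13.7% and 14.4% were higher. NDRG1 had 1303 ± 35.7, 748 ± 81.3 and 951 ± 324 CPM in MMP14-KO and 737 ± 40.8, 329 ± 74.0 and 348 ± 80.4 CPM in Wildtype spheroids, a difference of 1.18 at 24 h and 1.45 at 48 h (adjusted p = 0.00221 and 0.000612, edgeR). PFKFB4, a regulator of glycolysis, was 0.45 and 0.82 higher in MMP14-KO at 24 h and 48 h (adjusted p = 0.00851 and 0.0001, edgeR). HILPDA, known as a HIF target, was not called in the same libraries.

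Among 12 tested genes of glycerolipid synthesis before the DGAT step, 5 rose and 1 fell at 24 h in MMP14-KO and 5 rose and 3 fell in Wildtype spheroids, and 3 rose and 1 fell, and 5 rose and 3 fell, at 48 h. The share of all genes called was 51.1% and 56.5% at 24 h and 49.4% and 55.2% at 48 h, in MMP14-KO and Wildtype spheroids. AGPAT5, an acyltransferase of phosphatidic acid synthesis, had 24.7 ± 0.923, 34.2 ± 0.419 and 32.0 ± 1.92 CPM in MMP14-KO and 21.7 ± 1.48, 41.6 ± 3.87 and 38.3 ± 1.65 CPM in Wildtype spheroids. Its rise was smaller in MMP14-KO, with differences of responses of -0.47 at 24 h and -0.44 at 48 h (adjusted p = 0.0101 and 0.0156, edgeR), and no alternative lost either call. LPIN2, a phosphatidate phosphatase, fell in both genotypes, with log2 fold changes of -0.74 and -0.72 in MMP14-KO and -0.90 and -0.75 in Wildtype spheroids. SOAT1, which esterifies cholesterol for storage in droplets, rose by 0.48 and 0.51 in MMP14-KO and 0.53 and 0.60 in Wildtype spheroids, and was lower in MMP14-KO, with log2 fold changes of -0.31, -0.36 and -0.40 in droplets, at 24 h and at 48 h (adjusted p = 0.00034 or less, edgeR).

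Of 11 tested genes of fatty acid uptake, binding and activation, 1 rose and 4 fell at 24 h in MMP14-KO and 2 rose and 4 fell in Wildtype spheroids, and 0 rose and 4 fell, and 2 rose and 4 fell, at 48 h, beside the same shares of all genes (51.1% and 56.5%, then 49.4% and 55.2%). The acyl-CoA synthetase gene ACSL3, which acts in droplet formation, fell at 24 h and 48 h, with log2 fold changes of -0.40 and -0.42 in MMP14-KO and -0.54 and -0.49 in Wildtype spheroids. ACSL1 was lower in MMP14-KO in all 3 conditions, with log2 fold changes of -0.44, -0.50 and -0.60 (adjusted p = 0.000195 or less, edgeR). Of 12 tested droplet coat and droplet-forming genes other than the members, 1 rose and 3 fell at both times in MMP14-KO, and 1 rose and 3 fell, then 2 rose and 2 fell, in Wildtype spheroids, again beside 49.4% to 56.5% of all genes called. BSCL2, encoding the droplet assembly protein seipin, had 20.9 ± 1.35, 22.2 ± 2.08 and 22.0 ± 3.11 CPM in MMP14-KO and 32.2 ± 2.34, 20.05 ± 2.27 and 26.2 ± 2.74 CPM in Wildtype spheroids, and its 24 h responses differed by 0.77 (adjusted p = 0.00554, edgeR). Its 48 h responses were not called different, and it was already lower in MMP14-KO than in Wildtype droplets (adjusted p = 0.000184, edgeR).

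Of 9 tested neutral lipases and lipophagy genes other than the members, 4 rose and 2 fell at 24 h and 3 rose and 3 fell at 48 h in MMP14-KO, and 3 rose and 4 fell, and 3 rose and 3 fell, in Wildtype spheroids, when 51.1% and 49.4%, and 56.5% and 55.2%, of all genes were called. PNPLA3, a close relative of ATGL, had 1.18 ± 0.0608, 2.87 ± 0.139 and 2.40 ± 0.280 CPM in MMP14-KO and 1.91 ± 0.174, 2.88 ± 0.472 and 3.1 ± 0.201 CPM in Wildtype spheroids. NCEH1, a cholesterol ester hydrolase, had 164 ± 3.03, 263 ± 8.19 and 333 ± 31.0 CPM in MMP14-KO and 211 ± 11.2, 341 ± 13.0 and 454.5 ± 22.3 CPM in Wildtype spheroids. LIPG, encoding a secreted phospholipase, fell in both genotypes, with log2 fold changes of -1.26 and -1.56 in MMP14-KO and -1.33 and -2.14 in Wildtype spheroids at 24 h and 48 h (adjusted p = 0.000497 or less, edgeR).

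**Figure D4:**
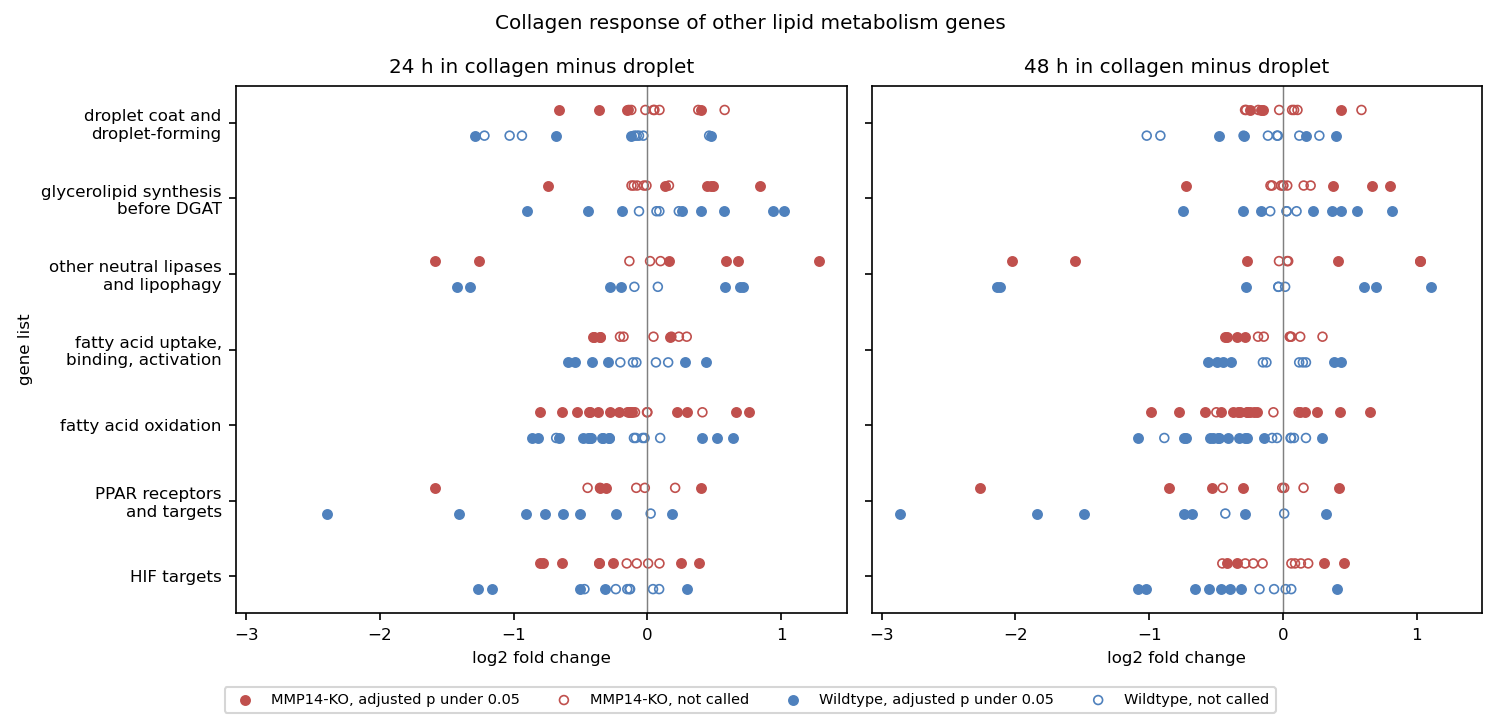
Collagen response of the tested genes of 7 other lists, as log2 fold change of 24 h (left) and 48 h (right) in collagen against droplets, 1 point a gene, with filled points for adjusted p under 0.05. In each list MMP14-KO (red) is above Wildtype (blue); most filled points of the fatty acid oxidation list (20 genes) and of the Wildtype PPAR list (9 genes) lie left of 0, the farthest being PDK4 in Wildtype spheroids at 48 h (-2.87).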

How the data were processed

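Polyadenylated RNA of 18 libraries was sequenced as 151 bp pairs. The deposited table holds the authors' RSEM expected counts per gene, already whole numbers and not normalised. Per the submitters' processing notes, cutadapt 2.3, FastQC 0.11.8, STAR 2.7.8a, RSEM 1.3.3, MultiQC 1.7 and DESeq2 1.42.0 were used with GRCh38; no source used here names the annotation release or strand setting. Of 62714 rows, 4 named no gene and were left out. The label of each library gave its genotype and condition.

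Genes were kept by edgeR's filterByExpr (count minimum 10), scaled by TMM and tested with edgeR 4.0.16 (R 4.3.3, limma 3.58.1) by the robust quasi-likelihood test, in 1 fit of 6 groups with 12 residual degrees of freedom. Benjamini-Hochberg adjustment ran over the 17030 genes within each of 11 contrasts, with a threshold of 0.05. The genotype difference in a response is the MMP14-KO response minus the Wildtype response. Levels per kb used GENCODE 29 exon lengths on GRCh38. The code was tested on simulated counts. No pair of libraries within a group agreed to within sampling noise.

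The members and gene lists were chosen with earlier results of these data known. Of each list, at most 3 genes per kind of contrast were eligible to be named, by the largest change among those called with at least 1 CPM in the higher group; genes like G0S2 were the 5 highest and 3 lowest correlations among genes with at least 5 CPM, of which 1 is not reported here. Alternatives were scaling by library size or RLE, no filter on low counts, DESeq2 1.42.0, only the groups compared, a replicate block, and leaving out each of the 18 libraries. Protein sequences were not used here. Promoters were matched for 6 of the 10 members.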

Additional observations from a re-analysis of the deposited data

Results flagged for a closer look

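The following genes had collagen responses that differed between genotypes in the test of the difference itself (edgeR, MMP14-KO response minus Wildtype response, log2). Lost calls are counted over the 24 alternatives.

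Among the members, the PLIN2 difference at 48 h was 0.43 (adjusted p = 0.0426), lost in 10. Among droplet assembly genes, BSCL2 had 0.77 at 24 h (adjusted p = 0.00554), lost in 0, and was not called at 48 h. The droplet-associated dehydrogenase gene HSD17B11 had -0.37 at 48 h (adjusted p = 0.0116, lost in 0) and -0.27 at 24 h (adjusted p = 0.045, lost in 12, up to 0.124).

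Among genes of glycerolipid synthesis, AGPAT5 had -0.47 at 24 h and -0.44 at 48 h (adjusted p = 0.0101 and 0.0156), lost in 0. GPAT3 had -0.41 at 24 h (adjusted p = 0.0281, lost in 9) and -0.40 at 48 h (adjusted p = 0.0342, lost in 8). LPIN3 had 0.70 at 48 h (adjusted p = 0.0148), lost in 1, without Wildtype droplet replicate 1 (0.61, adjusted p = 0.0551).

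Among genes of fatty acid uptake, activation and oxidation, ACSL4 had -0.37 at 48 h (adjusted p = 0.0131), lost in 0. FABP5 had -0.52 (adjusted p = 0.0349, lost in 6), SLC27A3 0.85 (adjusted p = 0.0404, lost in 11) and CPT1B 0.59 (adjusted p = 0.0429, lost in 12), all at 48 h.

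Among PPAR-related genes, PDK4 had 0.80 at 24 h (adjusted p = 0.0024, lost in 0) and 0.60 at 48 h (adjusted p = 0.017, lost in 3). PPARGC1A, a PPAR co-activator gene, had 0.68 at 24 h (adjusted p = 0.0401, lost in 8) and 0.74 at 48 h (adjusted p = 0.0316, lost in 7). CREB3L3 had 1.39 at 48 h (adjusted p = 0.0247), lost in 4, without Wildtype droplet replicate 1 (0.058), MMP14-KO droplet replicates 1 (0.0514) or 3 (0.0512), or Wildtype 48 h replicate 3 (0.0861). Of the HIF targets, VEGFA had 0.43 at 48 h (adjusted p = 0.0487, lost in 15).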

How the results depend on the processing

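No called value changed sign; values near 0 that were not called did, such as PLIN2 for MMP14-KO against Wildtype in droplets (-0.07 to 0.03). With no filter, called members were 1 of 9 for MMP14-KO against Wildtype in droplets (2 in the reported fit) and 2 for the 24 h difference of responses (0 reported), and called genes were 1101 for MMP14-KO at 48 h against 24 h (648 reported), 2046 and 2110 for the 24 h and 48 h differences (1262 and 1156 reported). LIPE, the 1 member called in MMP14-KO at 48 h against 24 h, gave 0 under library size, RLE, no filter, the replicate block and only the groups compared; PLIN3 in Wildtype gave 0 with only the groups compared. DESeq2 called 1761 genes in the 48 h difference. The replicate block called 1838 genes there and 1 member at 24 h, PLIN2 (0.34, adjusted p = 0.0279, edgeR). Same-numbered libraries correlated between -0.087 and 0.283, and each correlated best with its own number in 2 of 9 comparisons. These correlations do not settle whether a number marks a shared day or culture, and the labels do not say. Leaving out 1 library gave 1959 to 3298 genes and 1 to 2 members for the genotypes in droplets, 324 to 854 genes and 0 to 1 member between times in MMP14-KO, 1349 to 2529 genes and 0 to 1 member in Wildtype, 414 to 1953 genes and 0 to 1 member for the 24 h difference, and 316 to 1977 genes and 0 to 1 member for the 48 h difference. The lowest counts were without Wildtype droplet replicate 2, MMP14-KO 24 h replicate 2, Wildtype 24 h replicate 2, Wildtype 24 h replicate 3 and Wildtype droplet replicate 1, in that order. Library-size scaling moved the share of higher calls to 61.9% (46.5% reported) and 64.3% (48.9%) for the genotypes at 24 h and 48 h, 44.2% (54.5%) for MMP14-KO between times, and 59% (44.8%) and 73.9% (59%) for the 24 h and 48 h differences; DESeq2 gave 48.7% for the last and no filter 43.6% for MMP14-KO between times. The cause was not tested. Depth limits LIPE most, with 45 to 95 counts.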
